A study of Mus musculus with 7 samples.

Results

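Hotspots of accessible chromatin were examined at 9 genes of the circadian clock in mouse liver, Arntl, Clock, Per1, Per2, Cry1, Cry2, Nr1d1, Nr1d2 and Dbp. A hotspot, a stretch where nuclease cleavage tags cluster above background, was taken when it overlapped a gene body or the 20 kb on either side of it on the mm9 genome. This gave 71 of 60910 Benzonase hotspots, 69 of 57675 Cyanase hotspots and 78 of 72286 DNase I hotspots. Hotspots that overlapped by at least 1 bp were merged into regions, and 84 of 94491 regions fell in the 9 windows. All tissue came from male C57BL/6 mice 8 weeks of age. Benzonase and Cyanase, endonucleases that work in detergent, were applied to pulverized frozen liver in 3 samples each, at 0.25, 1 and 4 U, and the tags of the 3 samples were pooled by the authors. DNase I was applied to nuclei purified from fresh liver, with 1 sample in the labels, while the header of the list names 2 pooled libraries. The nuclease and the preparation of the tissue therefore cannot be told apart in any comparison with DNase I. The hour at which livers were taken is not given in the sources used here, so no value belongs to a known phase of the clock. Each nuclease has 1 list of positions without tag numbers, the depth of a list cannot be read from it, there are no replicates, and no test was made; intervals are 95% Wilson intervals that cover counting error only.

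The molecular clock is a feedback loop of transcription. CLOCK and ARNTL (BMAL1) bind E-boxes as a pair and activate the Per and Cry genes, whose proteins return to the nucleus and repress that pair. NR1D1 and NR1D2 (REV-ERBs) repress Arntl through ROR elements, and DBP, an output factor that cycles with large amplitude in liver, acts through D-boxes.

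Stretches that carry these motifs inside hotspots are shown on mm9, each on the strand of its gene, with motif letters in capitals. The motifs searched on both strands were the E-box CACGTG, the E-prime box CACGTT, the D-box TTANGTAA (N, any base), the cyclic AMP response element TGACGTCA and the ROR element, so that an E-prime box may read AACGTG. The stretches below lay in hotspots of all 3 nucleases and show motifs of the clock at negative-limb and output genes, upstream of the start site or in introns. They are the sequence 5′ of the Cry1 start site (chr10:84647834-84647898, minus strand), the sequence 5′ of the Per1 start site (chr11:68908549-68908594, plus strand), intron 1 of Nr1d1 (chr11:98635153-98635213, minus strand), intron 1 of Nr1d2 (chr14:19071019-19071212, minus strand), intron 2 of Dbp (chr7:52963062-52963220, plus strand) and intron 1 of Cry1 (chr10:84624634-84624739, minus strand). Capitals mark E-boxes and E-prime boxes, in Nr1d2 also a D-box, and in Cry1 intron 1 a pair of ROR elements.
Cry1 promoter: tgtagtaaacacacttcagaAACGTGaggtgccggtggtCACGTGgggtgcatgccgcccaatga
Per1 promoter: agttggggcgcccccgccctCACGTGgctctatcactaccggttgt
Nr1d1 intron: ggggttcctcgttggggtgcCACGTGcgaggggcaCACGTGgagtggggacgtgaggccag
Nr1d2 intron: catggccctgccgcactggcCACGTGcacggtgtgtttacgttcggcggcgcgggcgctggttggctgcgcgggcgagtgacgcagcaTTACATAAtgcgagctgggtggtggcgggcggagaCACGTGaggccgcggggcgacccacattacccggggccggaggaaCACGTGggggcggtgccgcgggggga
Dbp intron: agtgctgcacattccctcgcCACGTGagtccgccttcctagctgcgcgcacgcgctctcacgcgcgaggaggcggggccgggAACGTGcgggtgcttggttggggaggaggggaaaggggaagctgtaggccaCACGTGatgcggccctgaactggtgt
Cry1 intron: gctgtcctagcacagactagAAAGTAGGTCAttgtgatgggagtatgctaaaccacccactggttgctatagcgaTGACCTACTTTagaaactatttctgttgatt

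The next stretches show motifs in regions that 1 or 2 nucleases found. They lie upstream of Cry1 in a region of DNase I alone (chr10:84656188-84656233, minus strand, E-box), upstream of Nr1d1 in a region of Cyanase alone (chr11:98643522-98643567, minus strand, E-prime box), upstream of Per2 in a region of Benzonase and DNase I (chr1:93359961-93360021, minus strand, D-box and E-prime box), in intron 1 of Cry2 in a region of DNase I alone (chr2:92271067-92271117, minus strand, ROR element) and in intron 2 of Arntl in a region of Benzonase and Cyanase (chr7:120397712-120397762, plus strand, ROR element).
Cry1 upstream: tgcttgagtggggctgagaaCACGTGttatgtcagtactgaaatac
Nr1d1 upstream: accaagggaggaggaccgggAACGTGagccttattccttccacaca
Per2 upstream: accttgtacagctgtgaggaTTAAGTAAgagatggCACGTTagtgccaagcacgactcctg
Cry2 intron: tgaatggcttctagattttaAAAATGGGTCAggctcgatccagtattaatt
Arntl intron: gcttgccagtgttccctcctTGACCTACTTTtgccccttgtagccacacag

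The most upstream start site of each of the 9 genes lay inside a hotspot of Benzonase, of Cyanase and of DNase I. Over all 22365 genes with a protein-coding transcript, 57.4% had at least 1 start site in a Benzonase hotspot, 55.7% in a Cyanase hotspot and 47.4% in a DNase I hotspot. For the most upstream start site the shares were 54.1%, 52.4% and 44.2%. At least 1 start site was in each of the 3 lists for 46.1% of all genes. Among genes picked as cell type markers, 10 of 10 hepatocyte genes had a start site in all 3 lists. Of 6 genes of other tissues, 0 had a start site in any list. Start sites of Kupffer cell genes were found in 4 of 4 cases by DNase I, in 1 by Benzonase and in 1 by Cyanase; all 4 stellate cell genes were found by Cyanase, 2 by Benzonase and 1 by DNase I. Of 4 sinusoidal endothelial genes, 1 was found by Benzonase and Cyanase and 0 by DNase I, of 4 bile duct genes 2 were found by Benzonase and 1 by each other nuclease, and of 3 lymphocyte genes 1 was found by DNase I alone. The part of these other cells in the clock gene hotspots was not tested.

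**Figure D1:**
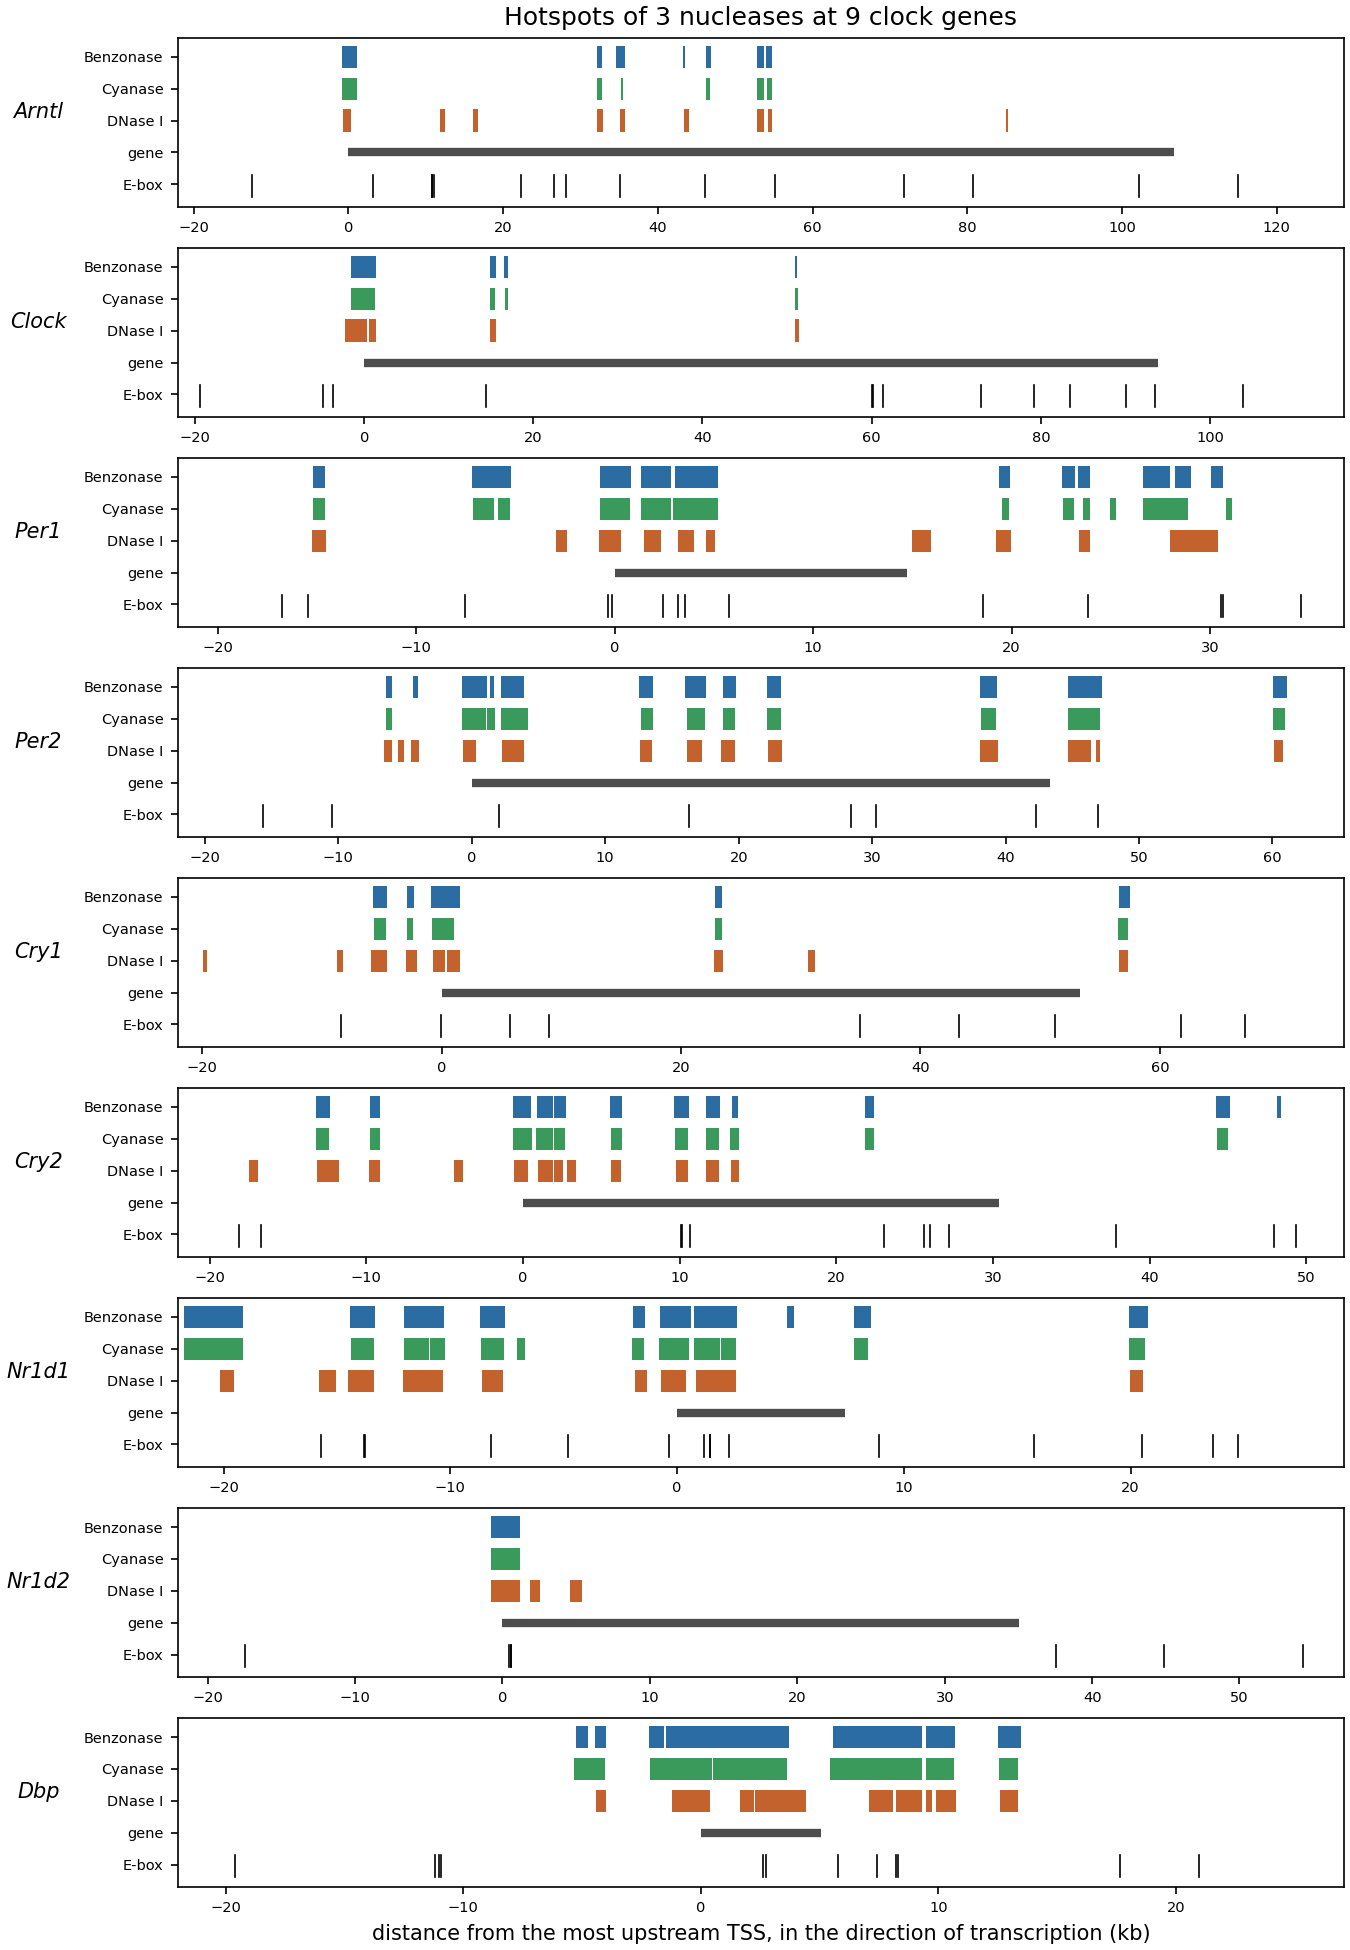
Hotspots of Benzonase, Cyanase and DNase I (coloured boxes) in the window of each of the 9 genes, against the distance in kb from the most upstream start site in the direction of transcription; the gray bar is the gene body and black ticks are E-boxes. Per2, Cry2 and Nr1d1 carry rows of hotspots shared by the 3 lists, whereas Nr1d2 has 1 shared region.

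The 84 regions were spread unevenly. Cry2 had 15 regions, Per1 14, Per2 13, Nr1d1 12, Arntl 10, Cry1 8, Dbp 5, Clock 4 and Nr1d2 3, against a median of 4 regions over the windows of all genes (quartiles 2 and 7). Window length differs, and per 10 kb the values ran from 0.299 in Clock to 2.56 in Per1, with a median over all genes of 0.545 (quartiles 0.238 and 0.976). Clock and Nr1d2 were the genes below that median. Of the summed bases of the 9 windows, hotspots covered 10.3% in Benzonase, 9.67% in Cyanase and 9.37% in DNase I. The medians of the values per gene over all genes, a different measure, were 3.22%, 2.90% and 2.98%. By clock gene the Benzonase value ran from 2.63% in Nr1d2 and 3.26% in Clock to 28.2% in Dbp.

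All 3 nucleases found 53 of the 84 regions, or 63.1% (interval 52.4 to 72.6), beside 40.0% of all regions and 44.3% of regions within 20 kb of a protein-coding gene. Of the 65 regions that hold no start site, 36 or 55.4% (43.3 to 66.8) were shared by the 3 lists, beside 33.8% of all such regions. With hotspots joined only where each covered 50% of the other, the share was 43.0% in the windows and 32.5% over all regions. DNase I alone found 15 regions (17.9%, beside 28.3% of all regions). Benzonase and Cyanase without DNase I found 9 (10.7%, beside 10.2%). Cyanase alone found 3 (3.57%, beside 6.80%) and Benzonase alone 2 (2.38%, beside 9.31%). Benzonase with DNase I found 2 (2.38%, beside 3.49%) and Cyanase with DNase I 0 (beside 1.98%). The 15 regions of DNase I alone held no start site, as was so for 99.1% of such regions in the series; 7 lay in gene bodies, 7 upstream and 1 downstream.

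**Figure D2:**
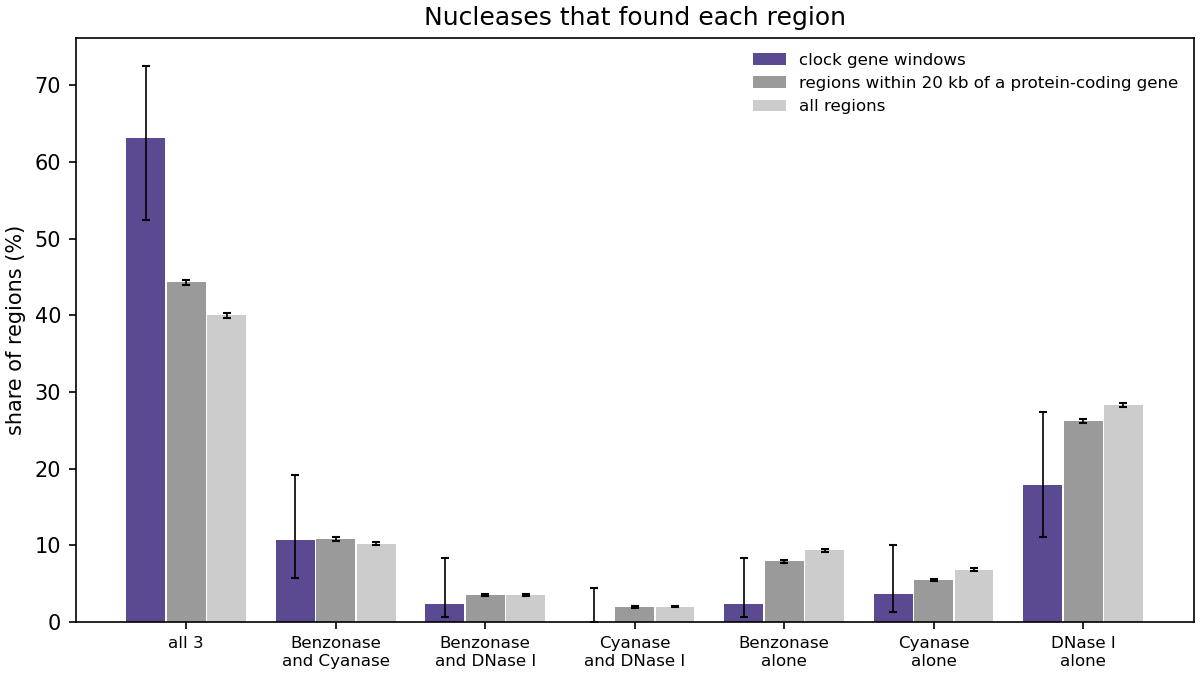
Share of regions (%) by the nucleases that found them, for the 84 regions of the clock gene windows, for regions within 20 kb of a protein-coding gene and for all 94491 regions; error bars are 95% Wilson intervals. The share found by all 3 nucleases was 63.1% in the windows and 40.0% among all regions, and that of DNase I alone 17.9% and 28.3%.

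At the start sites the lists differed in width more than in presence. At the most upstream start site of each gene the Benzonase hotspot had a median width of 1950 bp (1174 to 5177), the Cyanase hotspot 1834 bp (1213 to 2856) and the DNase I hotspot 1101 bp (861 to 2626). The difference lay mostly on the side of the gene. Upstream reach had medians of 775, 797 and 757 bp in Benzonase, Cyanase and DNase I, while downstream reach had medians of 1140, 1021 and 344 bp. The same order held over the 9570 genes with that start site in all 3 lists, where downstream reach had medians of 709, 649 and 341 bp. The DNase I hotspot was narrower than the Benzonase hotspot at 8 of 9 clock genes and at 88.4% of those 9570 genes, so this order was the usual one across the genome. Nr1d2 was the exception for the single hotspot over the start site. At Clock, Cry1 and Dbp a further DNase I hotspot of the same region ended at 1451, 1530 and 4439 bp, past the Benzonase edges at 1336, 1516 and 3696 bp.

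**Figure D3:**
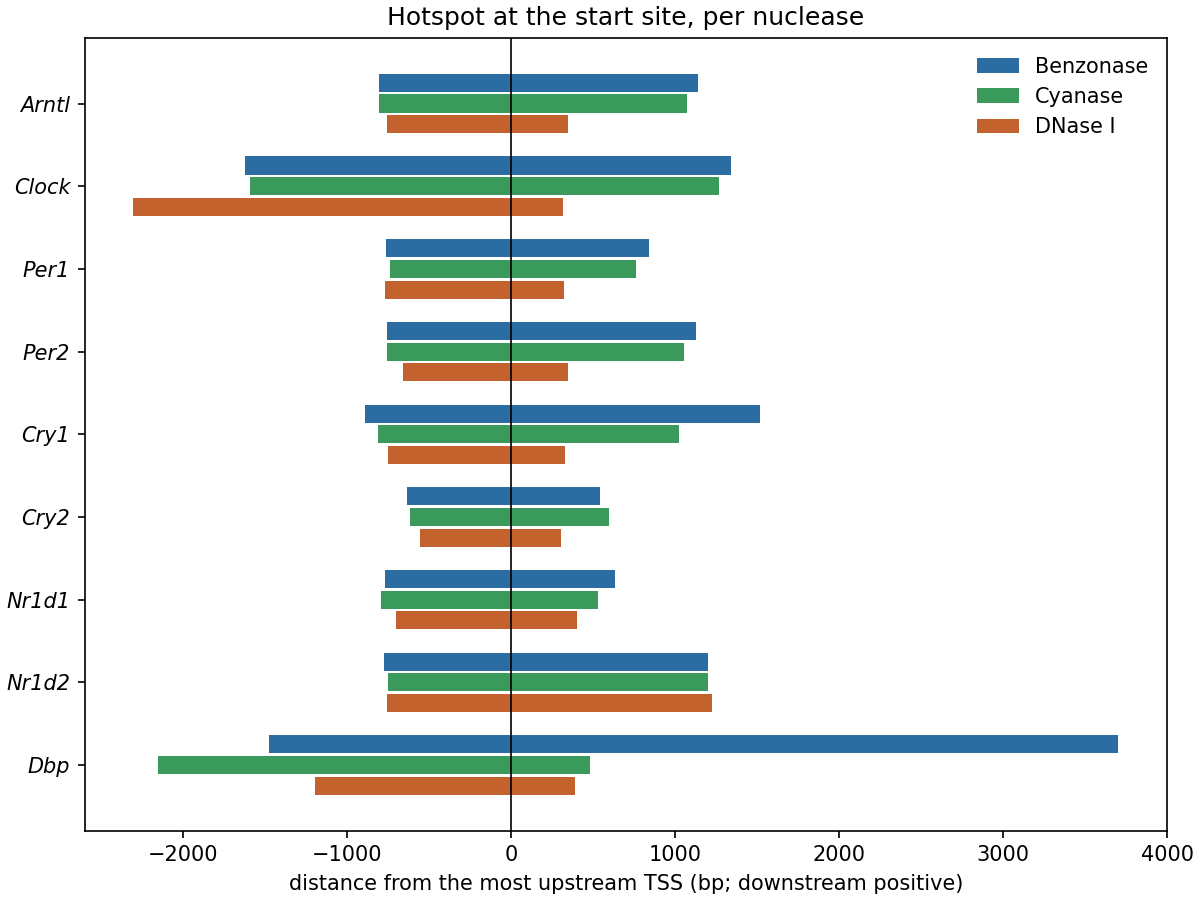
Extent of the hotspot that covers the most upstream start site of each gene, in bp from that site with downstream positive, for Benzonase, Cyanase and DNase I. DNase I hotspots end between 301 and 397 bp downstream except at Nr1d2, where all 3 lists reach at least 1200 bp.

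Among the activators, Arntl encodes BMAL1, the partner of CLOCK. It lies on the plus strand at chr7:120350979-120457636 and has 21 exons. Its start site region, chr7:120350170-120352119, spans exon 1 and the start of intron 1 and is the widest of the window. There the Benzonase hotspot was 1950 bp wide, the Cyanase hotspot 1877 bp and the DNase I hotspot 1104 bp. The upstream edges lay within 50 bp of each other, and DNase I ended 344 bp past the start site where Benzonase ended at 1140 bp. A ROR element began 72 bp past the start site, inside all 3 hotspots. The other 9 regions were intronic, 6 of them in intron 2.

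Intron 2 of Arntl shows how bounds differ among the lists. Region chr7:120385599-120386793 was 1195 bp wide in Benzonase, 685 bp in DNase I and 262 bp in Cyanase, and its E-box lay inside the Benzonase and DNase I hotspots and outside the Cyanase hotspot. Region chr7:120394184-120395000 was found by Benzonase, with 251 bp, and by DNase I, with 605 bp, and its ROR element lay inside the DNase I hotspot alone. Region chr7:120397176-120397807, found by Benzonase and Cyanase, holds the ROR element printed above, which lay inside the 621 bp Benzonase hotspot and outside the 517 bp Cyanase hotspot. DNase I alone found 3 regions, 2 in intron 1 and 1 in intron 11.

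Clock encodes the histone acetyltransferase that pairs with ARNTL. It lies on the minus strand at chr5:76639992-76733817 with 23 exons. Its start site region, chr5:76732366-76736126, was 3761 bp wide and reached from 2309 bp upstream into intron 2, 1451 bp past the start site. The Benzonase hotspot was 2958 bp wide and the Cyanase hotspot 2856 bp, and DNase I gave a pair of hotspots that together were 3558 bp wide. The DNase I hotspot over the start site, at 2626 bp, was wider than 99.4% of DNase I hotspots at the most upstream start sites of all genes. Clock had 3 further regions, all intronic, of which chr5:76716785-76717273 in intron 2 was found by Benzonase and Cyanase. None of the 13 E-boxes of its window lay in a hotspot of any list.

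The Per genes encode repressors that accumulate with the CRY proteins. Per1 lies on the plus strand at chr11:68908719-68923462 and has 5 annotated start sites. The most upstream lay in region chr11:68907949-68909560, with hotspots of 1604 bp in Benzonase, 1503 bp in Cyanase and 1091 bp in DNase I, and the E-boxes at positions -334 and -150 lay in all 3 lists. The next 3 lay in region chr11:68911649-68913920, which Benzonase covered with 1 hotspot of 2144 bp, Cyanase with 1 of 2265 bp, and DNase I with 2 hotspots that summed to 1281 bp. The most downstream start site lay outside every list, 104 bp from the nearest Benzonase edge. Between both start site regions, chr11:68910033-68911547 in intron 1 held a cyclic AMP response element inside all 3 lists. The widest region, chr11:68935328-68939386, lay downstream, overlapped the body of Hes7, a repressor gene of the somite clock, and comprised 3 Benzonase hotspots, 1 Cyanase hotspot and 1 DNase I hotspot. The start site of the upstream neighbour Vamp2 was found by Benzonase and Cyanase, and that of Hes7 by Cyanase alone with 303 bp.

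Per2, on the minus strand at chr1:93312561-93355907, had the largest number of shared regions, with 10 of 13 found by all 3 nucleases. Its start site region, chr1:93354782-93356667, had hotspots of 1883 bp in Benzonase, 1813 bp in Cyanase and 1010 bp in DNase I. An E-prime box 11 bp past the start site and D-boxes at positions -119 and 228 lay inside all of these. Beside it in intron 1, chr1:93354191-93354778 was found by Benzonase and Cyanase. Upstream, region chr1:93359838-93360435 with the D-box and E-prime box printed above was found by Benzonase, with 407 bp, and DNase I, with 598 bp. The widest region, chr1:93308679-93311217, covers the start site of the neighbour Hes6, and the start site of Ilkap also lay in all 3 lists.

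Cry1, which encodes a cryptochrome repressor, lies on the minus strand at chr10:84594447-84647799. Its start site region, chr10:84646269-84648691, is the widest of the window, with 2409 bp in Benzonase, 1834 bp in Cyanase and 2 hotspots of summed width 2162 bp in DNase I. The E-box and E-prime box printed above, at positions -60 and -79, lay in all 3 lists. In intron 1, region chr10:84624284-84625052, between 22747 and 23515 bp from the start site, carries 2 ROR elements, at 23080 and 23135 bp. It was 612 bp wide in Benzonase, 623 bp in Cyanase and 769 bp in DNase I. DNase I alone found 3 regions at Cry1, and 1 of them, chr10:84656011-84656571, holds the E-box printed above. The start site of the neighbour Mterfd3 was in all 3 lists.

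Cry2, on the minus strand at chr2:92243803-92274200, had the most regions, 15, of which 9 were shared. Its start site hotspots were the narrowest of the 9 genes in each list, 1174 bp in Benzonase, 1213 bp in Cyanase and 861 bp in DNase I, within region chr2:92273605-92274835. From the start site region to 13813 bp downstream there were 7 shared regions. A pair of E-boxes in intron 3 lay in 1 of these, chr2:92263586-92264534, in all 3 lists. DNase I alone found 3 regions, and the ROR element printed above is in chr2:92270798-92271360 in intron 1. Benzonase and Cyanase found chr2:92251801-92252377 at exon 11 and chr2:92229072-92229981 downstream of the gene. The widest region, chr2:92285911-92287422, lay upstream, with 1453 bp in DNase I and 850 bp in Benzonase.

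Nr1d1 encodes REV-ERB alpha and lies on the minus strand at chr11:98629246-98636647, overlapping the 3′ end of Thra, the thyroid hormone receptor gene on the plus strand. Its start site region, chr11:98636018-98637444, had hotspots of 1402 bp in Benzonase, 1323 bp in Cyanase and 1101 bp in DNase I. Region chr11:98634014-98635904 in intron 1 had summed widths of 1879, 1844 and 1800 bp, and 4 E-boxes, a D-box and a ROR element lay inside all 3 lists. Of the 15 E-boxes of the window, 9 lay in hotspots of all 3 nucleases. The regions upstream included chr11:98643365-98643697, found by Cyanase alone with an E-prime box and a D-box, and chr11:98651689-98652454, found by DNase I alone with an E-box and a D-box. Benzonase alone found chr11:98631503-98631778 in exon 5. The widest region, chr11:98655790-98658380, crosses the window edge and covers the start site of Msl1, with 2591 bp in Benzonase, 2568 bp in Cyanase and 637 bp in DNase I. At the opposite edge of this window, a region of Benzonase and Cyanase lay 39 bp outside; the region nearest to an edge from inside was one of DNase I alone at Cry1, 38 bp within.

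Nr1d2, which encodes REV-ERB beta, lies on the minus strand at chr14:19036568-19071641. It had 1 shared region, chr14:19070417-19072416 over the start site, which is the widest of the window. All lists placed it alike, with 1976 bp in Benzonase, 1955 bp in Cyanase and 1982 bp in DNase I. This DNase I hotspot was wider than 97.0% of DNase I hotspots at the most upstream start sites of all genes, and its downstream reach was 1224 bp. The 3 E-boxes and the D-box of the printed stretch, from 449 to 597 bp past the start site, lay inside all 3. The other 2 regions, in intron 1, were found by DNase I alone. A start site annotated further downstream lay 22097 bp from the nearest DNase I hotspot.

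Dbp, the output gene, lies on the plus strand at chr7:52960458-52965525 and has 4 exons. Its start site region, chr7:52958274-52964897, was the widest of the 84 at 6624 bp and spans exons 1 to 3. Benzonase covered the start site with a hotspot of 5177 bp, which only 6 of 60910 Benzonase hotspots exceeded. In the whole region Benzonase gave 2 hotspots of summed width 5813 bp, Cyanase 2 of 5781 bp and DNase I 3 of 4326 bp. Of the gene body, 72.9% lay in Benzonase hotspots, 71.6% in Cyanase hotspots and 61.8% in DNase I hotspots, each value above that of at least 99.0% of genes. That ranking was not matched for gene length, and Dbp, at 5068 bp, was the shortest of the 9 genes. Its body also overlaps that of Sphk2. The E-boxes and E-prime box of intron 2 lay inside all 3 lists, and 1 ROR element lay in the window from 250 bp before to 50 bp after the start site. The downstream start site of Dbp lay in Benzonase and Cyanase hotspots and 147 bp from the nearest DNase I edge. Region chr7:52965879-52969762, 3884 bp wide in the neighbouring Sphk2, held 4 E-boxes, 3 of them inside all 3 lists, and the start sites of Sphk2 and Rpl18 lay in all 3 lists. The start site of Car11 lay in Benzonase and Cyanase hotspots, with no DNase I hotspot over it.

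In the 53 shared regions the summed DNase I width was smaller than the Benzonase width in 35, or 66.0%, beside 54.2% of all 37766 shared regions. The median log2 ratio was -0.179 (quartiles -0.426 and 0.105), beside -0.0388 over all shared regions. The ratio differed both by start site and by CpG island, and these were not separated. With a start site the median was -0.443 in 17 regions, beside -0.414 in all such regions, and without a start site it was -0.0480 in 36 regions, beside 0.0497. With an island the median was -0.443 in 17 regions, beside -0.460, and without an island -0.0578 in 36 regions, beside 0.0494. In 40 of 53 regions, or 75.5%, the Cyanase width was smaller than the Benzonase width, beside 68.7% of all shared regions. The Cyanase to Benzonase median was -0.0680, beside -0.0596 over all shared regions. In the 36 regions without a start site it was -0.0815, farther from 0 than the DNase I median. Outer edges of Cyanase and Benzonase lay a median of 30.0 bp apart, and 68 of 106 edges, or 64.2%, lay within 50 bp, beside a median of 34.0 bp and 64.1% over all shared regions. For DNase I and Benzonase the median was 78.5 bp, with 31 of 106 edges or 29.2% within 50 bp, beside 74.0 bp and 37.5%.

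Base composition differed among the regions by nuclease. Mean GC content was 52.9% (SD 6.23, 53 regions) where all 3 nucleases found a region, 58.4% (SD 4.75, 14 regions) where DNase I was absent, and 44.0% (SD 4.04, 15 regions) in DNase I alone; the 2 regions of DNase I and Benzonase had a mean of 49.2%. The lowest GC content without DNase I, 48.3%, overlapped the highest of DNase I alone, 50.3%. Means over all regions of the series had the same order, 50%, 54.7% and 42.3%. CpG islands of at least 200 bp were present in 17 of 53 shared regions, in 3 of 14 without DNase I and in 1 of 15 of DNase I alone; over all regions these shares were 25.1%, 14.2% and 0.198%. The 10 regions at clock gene start sites held an island in 8 cases, beside 78.6% of all regions with a start site.

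**Figure D4:**
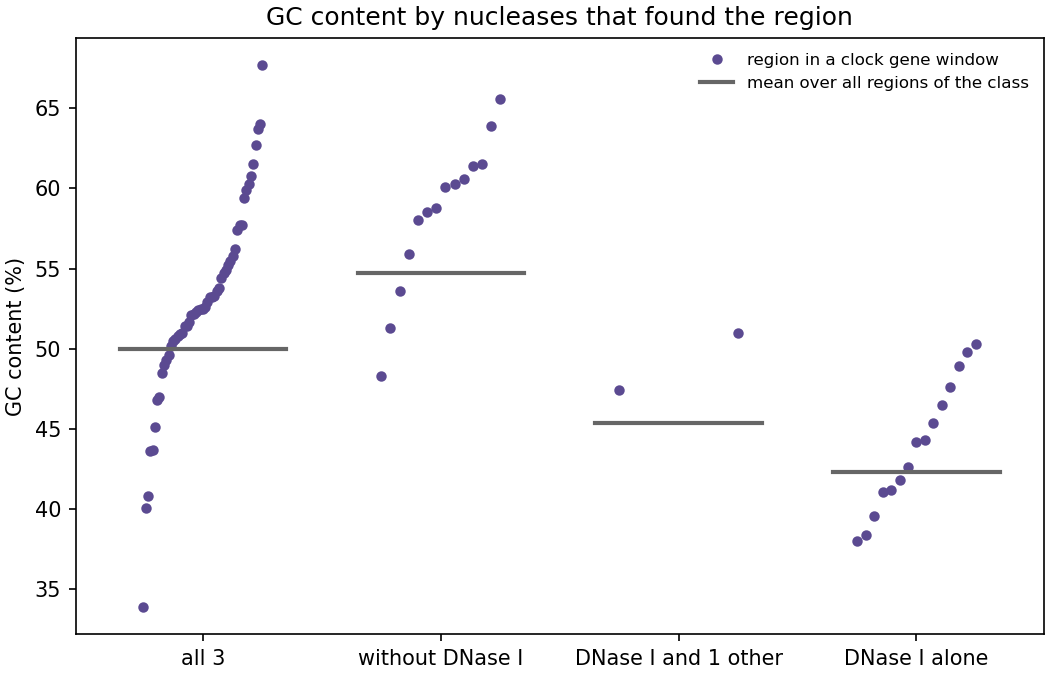
GC content (%) of each region in the clock gene windows, grouped by the nucleases that found it, with points sorted within a group; gray lines are means over all regions of the series in that group. The 15 regions of DNase I alone lie between 38.0% and 50.3%, and the 14 without DNase I between 48.3% and 65.6%.

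E-boxes, the sites that CLOCK and ARNTL bind, were counted in the 9 windows. Of 105 E-boxes, 32 lay inside a Benzonase hotspot (30.5%, interval 22.5 to 39.8), 29 inside a Cyanase hotspot (27.6%, 20 to 36.8) and 30 inside a DNase I hotspot (28.6%, 20.8 to 37.8). Over the genome 3.92%, 3.57% and 3.80% of E-boxes lay inside hotspots of these lists. Within 20 kb of protein-coding genes the shares were 5.37%, 4.92% and 5.03%, and the same lists covered 10.3%, 9.67% and 9.37% of the bases in the 9 windows. They covered 48.1, 44.0 and 51.8 megabases of the genome, and the E-box shares were not scaled to base coverage. Outside CpG islands the shares in the windows were 24.5%, 21.3% and 22.3%, beside 2.90%, 2.6% and 3.10% over the genome. By gene, E-boxes inside a hotspot of at least 1 list numbered 10 of 15 in Nr1d1, 8 of 14 in Per1, 6 of 12 in Dbp, 3 of 7 in Nr1d2, and 2 of 8 in Per2. They numbered 2 of 9 in Cry1, 2 of 12 in Cry2, 1 of 15 in Arntl and 0 of 13 in Clock.

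**Figure D5:**
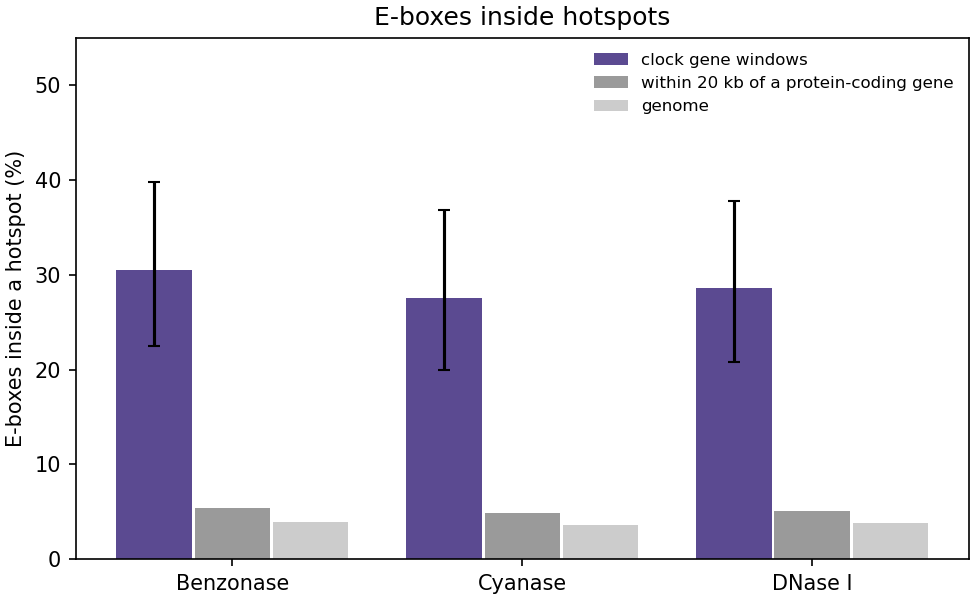
Share of E-boxes (%) that lie inside a hotspot of each nuclease, for the 105 E-boxes of the clock gene windows, those within 20 kb of a protein-coding gene and those of the genome; error bars on the windows are 95% Wilson intervals. The windows lie between 27.6% and 30.5% and the genome between 3.57% and 3.92%.

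Motif letters were also counted around region centers and start sites. In the central 300 bp, 6 of 84 regions held an E-box (7.14%), beside 5.91% of all regions. Over whole regions, a count chosen after seeing the data, the shares were 23.8% and 12.5%. These 2 shares were not scaled to region width, and a wider region has more room for a match. Regions of all 3 nucleases had a median width of 1125 bp in the windows, beside 918 bp over the series. In the central window 5 held an E-prime box (5.95%, beside 4.38%), 4 a D-box (4.76%, beside 3.48%), 4 a ROR element (4.76%, beside 0.821%) and 2 a cyclic AMP response element (2.38%, beside 0.684%). In the window from 250 bp before to 50 bp after the most upstream start site, 4 of 9 genes, Per2, Cry1, Cry2 and Nr1d1, held an E-prime box, beside 4.90% of all genes. An E-box was there in Per1 and Cry1, or 2 of 9, beside 7.78%. A D-box was there in Per2, beside 2.16%, and a ROR element in Dbp, beside 0.295%. A cyclic AMP response element was there in 0 of 9, beside 2.35%. A match of letters describes the sequence and is not a bound site.

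Of 21 other clock genes, all had a start site in a Benzonase and in a Cyanase hotspot, and 19 in a DNase I hotspot, when any of their start sites was counted, beside 57.4%, 55.7% and 47.4% of all genes. With the most upstream start site alone, the counts were 19, 19 and 17, beside 54.1%, 52.4% and 44.2%. The exceptions under the wider count were Npas2, a paralog of Clock, with hotspots of 2636 bp in Benzonase and 2230 bp in Cyanase, and Csnk1e, which encodes a casein kinase that phosphorylates PER proteins, with 1258 and 1284 bp. Wide start site regions were found at Usp2 with 4147 bp, Bhlhe40 with 4137 bp and Nfil3 with 3107 bp. Each is the widest merged region over any start site of the gene. The single hotspots listed for a Usp2 start site were narrower, with 1254 bp in Benzonase, 1187 bp in Cyanase and 1113 bp in DNase I. Bhlhe40 encodes a repressor of E-box genes and Nfil3 a repressor at D-boxes. At Bhlhe40 the DNase I hotspot was 3073 bp wide beside 4116 bp in Benzonase.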

How the data were processed

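Hotspots were measured in 7 liver samples, and the authors deposited 1 list of start and end positions for each nuclease, in bp, called at a false discovery rate of 0% on input-adjusted tags pooled by nuclease and aligned to mm9, per the file headers and the labels. The lists hold no tag number or density, so the depth behind a hotspot cannot be read from them, though the study describes the depth of its Benzonase and Cyanase samples; 0 columns of other samples were used. Genes and transcripts came from GENCODE M1 on NCBIM37, the same assembly. Positions count from 1. The most upstream start site among protein-coding transcripts set distances and exon numbers. CpG islands had at least 200 bp, a GC limit of 50% and a limit of 0.6 for observed over expected CpG. Named were the 9 genes, neighbours with a start site in a hotspot or overlapping a member, other clock genes in fewer than 3 lists or with the 4 widest start site regions (1 is not described here), and regions at a start site, widest in a window, or found by 1 or 2 nucleases with an E-box, D-box or ROR element; other regions were named after their values were seen. The members and lists were chosen with earlier results of these data known. Alternatives were other flanks, overlap rules, width limits, start sites and islands. The merging, the E-box search and the island search were tested on simulated data. Python 3.11.15, numpy 2.4.6, scipy 1.17.1, matplotlib 3.10.9 and samtools 1.23.1 were used.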

Additional observations from a re-analysis of the deposited data

How the results depend on the processing

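Of 62 alternative values, 55 stayed within a limit of 1.5 times for counts, the 95% interval for shares, the quartiles for width ratios and the SD for GC content; the 4 width ratio values kept their sign. Without flanks the windows held 44 regions, by construction. With hotspots joined only where each covered 50% of the other, the share found by all 3 nucleases was 43.0%, with 32.5% over all regions. Leaving out each gene in turn gave 60.6 to 65.7%. Islands of at least 500 bp were present in 13 regions. With windows of 50 kb, E-boxes inside hotspots were 21.3% in Benzonase, 18.5% in Cyanase and 19.1% in DNase I. Over whole regions, an alternative chosen after seeing the data, 23.8% held an E-box, beside 12.5% of all regions, not scaled to region width. For the overlap rule and the windows of 50 kb the cause was not tested. The alternatives for other clock genes were also chosen after seeing the data. Several of the 55 could not have moved. A hotspot within 500 bp could not lower a full count, and no region of DNase I alone held a start site to leave out. Leaving out narrow hotspots could not change the count of clock genes, since the hotspots at their most upstream start sites are all wider than the limit. Tag numbers were not analysed here, so absence from a list cannot be told apart from low depth.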
